A study of Saccharomyces cerevisiae with 8 samples.

Results

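The yeast transcript annotation used for these libraries has a class called other, kept apart from transcripts of open reading frames (ORF-Ts) and from unstable (CUT) and stable (SUT) noncoding transcripts. Described here are the features of that class whose common name does not begin with SNR, the prefix of small nucleolar and small nuclear RNAs. The rule left 269 of the 329 features of the class, out of 7272 features in all, and put aside the 60 named SNR. It used class and name and no measured value. The members carry the names of overlapping or neighbouring open reading frames joined together, open reading frames absent from the reference gene table, long terminal repeats of Ty retrotransposons, tRNA genes, and a handful of abundant noncoding RNA genes.

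The libraries are NET-seq libraries, short for native elongating transcript sequencing: RNA still held by RNA polymerase II is purified through the polymerase and its 3′ ends are sequenced, so that reads mark transcription in progress. All 4 strains carry the Rpb3-FLAG tagged polymerase subunit, and all cells were taken in mid-log growth in YPD, a rich glucose medium. The 3 mutant strains are YSB3062 (Rpb3-FLAG cac1Δ), YSB3063 (Rpb3-FLAG cac2Δ) and YSB3064 (Rpb3-FLAG cac3Δ), each lacking 1 subunit of chromatin assembly factor I, the histone chaperone that places histones H3 and H4 on newly copied DNA; the wild type is YSC0001 (Rpb3-FLAG). There were 2 biological replicates of each strain, the labels do not say from how many clones, and since the wild type's strain name comes from a different numbering than those of the mutants, mutation and strain background cannot be told apart.

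Reads counted per library ran from 1959549 to 7117979 in the mutants and were 1880299 and 7705151 in wild type. Reads on the deleted gene fell in each mutant: RLF2, which encodes Cac1, by 1.47 on the log2 scale in cac1, CAC2 by 1.58 in cac2, and MSI1, which encodes Cac3, by 1.16 in cac3. The remaining reads on these features do not show which part of each gene was removed. The members took 6.9% to 7.73% of the reads in the mutant libraries, against 7.91% and 7.74% in wild type. Every member had at least 3 reads in every library, and all 269 entered the test.

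Some background helps in reading the names. Long terminal repeats are the ends of Ty elements, and most copies in the yeast genome stand alone after the element was lost; many lie beside tRNA genes, where Ty elements prefer to insert. tRNA genes, SCR1 (the RNA of the signal recognition particle) and RPR1 (the RNA of RNase P) are known to be transcribed by RNA polymerase III, not by the polymerase purified here. LSR1 is the U2 spliceosomal RNA, TLC1 is the telomerase template RNA, and NME1 is the RNA of RNase MRP.

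The 269 members carried 433 names, 418 of them distinct. A single name stood on 110 members, 2 names on 154 and 3 names on 5. Of the names, 242 belong to protein-coding genes in the RefSeq gene table and 136 have the systematic form of a yeast open reading frame but no entry there. Another 27 are long terminal repeats, 14 are tRNA genes, 7 are pseudogenes, 5 are noncoding RNA genes, and 2 are small nucleolar RNAs that stand second in a joint name (YGL088W, SNR10 and YDR042C, SNR47). The joint names most often paired a listed gene with an unlisted reading frame, in 73 members, or listed genes only, in 68. Reading frames without an entry stood alone on 54 members.

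Members were 57 to 6137 bp long with a median of 1225 bp, against 1521 bp for ORF-Ts. Both ends had been mapped for 244 of them. LSR1 spanned 1465 bp. Length was not always that of the named RNA: the features with a single tRNA name ran from 89 bp (tL(GAG)G) to 1417 bp (tK(UUU)O), far beyond a tRNA at the upper end. Members did not overlap features of their own strand by more than 1 base. On the other strand, 102 members overlapped an ORF-T and 49 a CUT or a SUT, and 35 members had at least 50% of their length covered by an opposite ORF-T.

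Levels are given as RPKM, the read count divided by feature length and by the library's total, computed from the deposited counts. Each total was first multiplied by the library's scaling factor (0.964 to 1.02), which is described with the processing. Features of different length can thus be set side by side. The median wild-type level was 49.7 RPKM over the members and 60.6 RPKM over the 5171 ORF-Ts. The members reached further up: from 2.12 to 28800 RPKM, against at most 3810 RPKM among ORF-Ts. Features named only for unlisted reading frames were low, with a median of 25.1 RPKM over 57 members. Joint members had a median of 55.9 RPKM over 159, close to that of ORF-Ts.

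**Figure D1:**
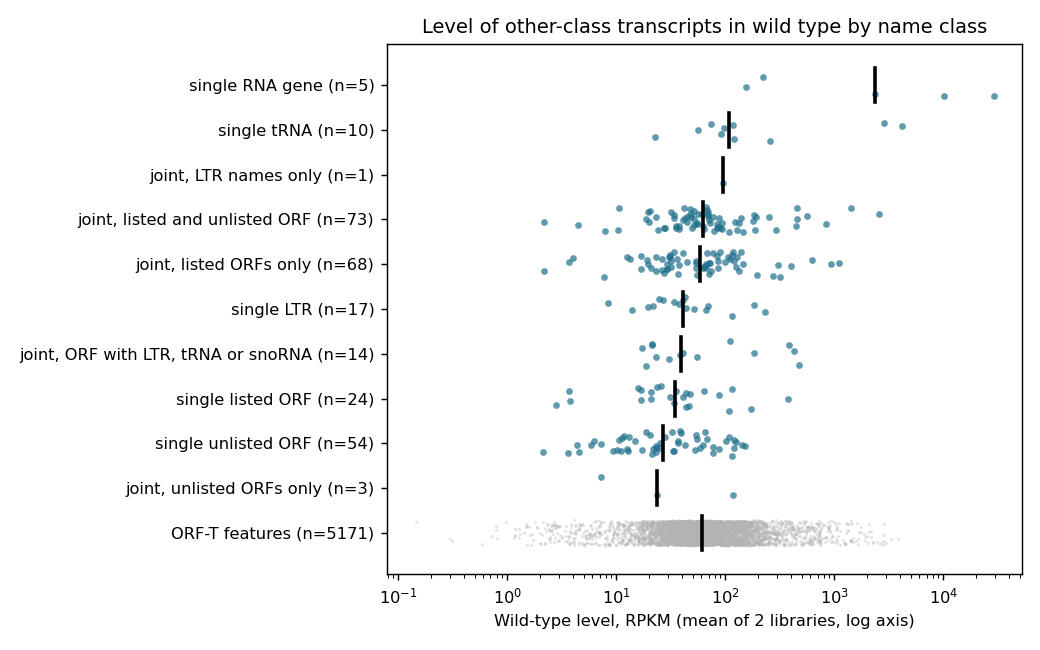
Wild-type level of each member by the kind of name it carries, with ORF-Ts below in grey; the horizontal axis is the mean RPKM of the 2 wild-type libraries on a log scale, each point is a feature and each black bar a median. The noncoding RNA genes stand highest, with a median of 2350 RPKM, and the reading frames without a reference entry lie lowest among the larger groups.

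LSR1, the U2 RNA, was the highest member. It stood at 24680 and 20520 RPKM in cac1, 21740 and 24160 in cac2, 22100 and 22890 in cac3, and 29580 and 28120 in wild type. All 6 mutant libraries lay below both wild-type libraries. LSR1 alone took 3.08% to 3.7% of all counted reads in the mutants, against 4.24% and 3.97% in wild type. Without the 5 noncoding RNA genes the members' share was 3.04% to 3.23% in the mutants and 3.01% and 3.15% in wild type, so the groups overlapped.

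SCR1 followed at 12720 and 9880 RPKM in cac1, 9543 and 7587 in cac2, 10550 and 9779 in cac3, and 10560 and 9510 in wild type. Mutant libraries fell on both sides of wild type. RPR1 held 1769 to 2742 RPKM over the 6 mutant libraries, against 2136 and 2560 in wild type, again overlapping. NME1 had 117.5 to 153 RPKM in the mutants and 136.1 and 170.8 in wild type, and TLC1 had 187.4 to 204.4 RPKM in the mutants and 221 and 223.6 in wild type. Only LSR1 and TLC1 of these 5 had the groups apart.

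Among tRNA names the 2 highest were tL(GAG)G, a leucine tRNA, and tV(AAC)G3, a valine tRNA. The replicates of tV(AAC)G3 differed widely: 1095 and 1973 RPKM in cac1, 1027 and 1821 in cac2, 999.2 and 1572 in cac3, and 1467 and 4255 in wild type. The library numbered 2 was the higher one in all 4 strains, and the groups overlapped. For tL(GAG)G the mutant libraries held 2807 to 3883 RPKM and the wild-type libraries 3136 and 5135. YCR006C, SUF2, which includes a proline tRNA, ran from 220.3 to 843.1 RPKM in the mutants, against 498 and 357.4 in wild type. The other 8 features with a single tRNA name were far lower, with wild-type means of at most 259.1 RPKM. No source used here says how reads that match several copies were counted, which leaves the levels of tRNA and repeat names uncertain.

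Several joint members stood high as well. YLR366W, RPS22B, a feature of 57 bp joined to a small-subunit ribosomal protein gene, averaged 1100 ± 137 RPKM in the mutants (SD, n = 6) and 1430 ± 52.2 RPKM in wild type (SD, n = 2). YDR524C-B, YDR524C-A averaged 2345 ± 126 RPKM in the mutants and 2591 ± 255 RPKM in wild type. PMP1, a small regulator of the plasma membrane proton pump, is joined to YCR024C-B; that feature had 994.4 ± 116 RPKM in the mutants and 1109 ± 127 RPKM in wild type, a difference not past the test. At the other end, the lowest members in wild type were YHR032C-A at 2.12 RPKM, the SGA1 feature (YIL100W, SGA1) at 2.17 RPKM and the BNA2 feature (BNA2, YJR079W) at 2.18 RPKM. Those means rest on few reads, 7 and 18 in the wild-type libraries for BNA2, YJR079W.

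Replicates of the members scattered more than those of ORF-Ts. The median absolute log2 difference between the replicates was 0.155 in cac1, 0.13 in cac2, 0.078 in cac3 and 0.125 in wild type for members. For ORF-Ts the same medians were 0.105, 0.105, 0.065 and 0.089. Joint members, at 0.119, 0.103, 0.069 and 0.099, were nearer to ORF-Ts than single-name members, at 0.207, 0.166, 0.104 and 0.168. These values have 1 added to each RPKM. The part of level and length in the scatter was not tested.

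Changes were tested with edgeR's quasi-likelihood fit over all features, with p-values adjusted over all of them by the Benjamini-Hochberg method and a threshold of 0.05; a log2 change is a mutant minus wild type, so positive values are higher in the mutant. In the mean of the 3 mutants against wild type, 38 members rose and 19 fell. Over all 7271 features tested, 11.9% rose and 8.86% fell, and over ORF-Ts 10.8% rose and 8.35% fell. The shares of the members, 14.1% and 7.06%, were near those backgrounds. The median log2 change was 0.03 over the members and 0.00 over ORF-Ts. Of the 57 members past the threshold, 53 had all 6 mutant libraries on the same side of both wild-type libraries, as did 80 of the 269 members altogether. The same count was not made over all features, so these numbers show nothing particular to the members. Passing the test also favours such separation.

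These counts leaned on wild-type replicate 2, the deepest library: with it left out, 7 members rose and 2 fell, and with wild-type replicate 1 left out 30 rose and 13 fell. All 57 kept the sign of their change in each of the 8 fits that left out 1 library, and 8 of them stayed past the threshold in every one. Of those 8, the RPL21A feature (YBR190W, RPL21A, YBR191W-A) fell. The other 7 rose: the BNA2 feature (BNA2, YJR079W), the POR1 feature (POR1, tD(GUC)N), the joint YOR161W-A, YOR161W-B, and the single names YBL006W-A, YKL031W, YLR041W and YLR120W-A. With no scaling beyond the library totals, 52 members rose and 10 fell, so that 83.9% of the called members were higher in place of 66.7%.

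**Figure D2:**
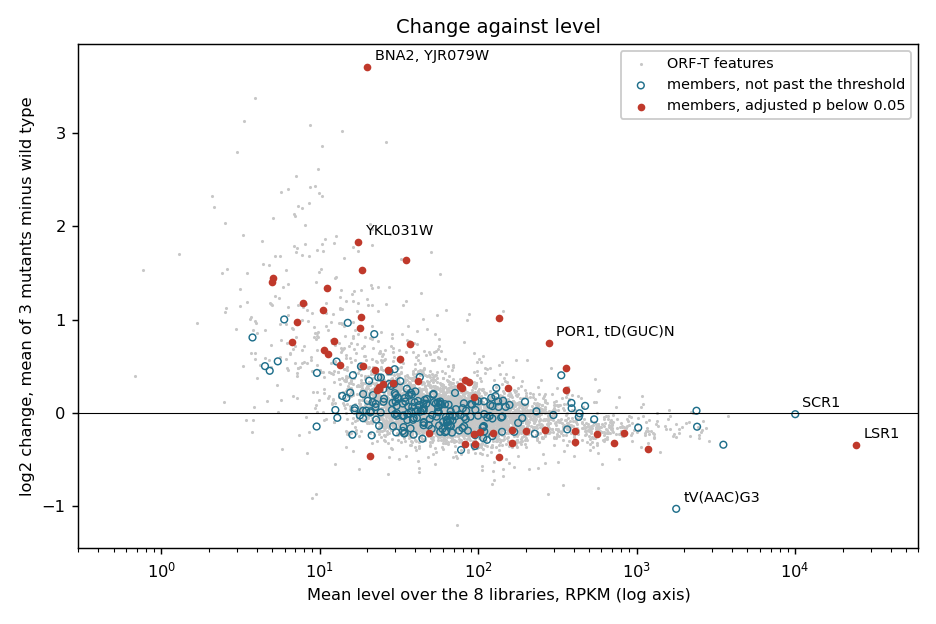
Log2 change in the mean of the 3 mutants minus wild type (vertical axis) against the mean RPKM over the 8 libraries (horizontal log axis) for the members (open blue circles, filled red where the adjusted p is below 0.05) and ORF-Ts (grey). Most members lie within the cloud of ORF-Ts, and most of the red points above 0 lie below 30 RPKM; BNA2, YJR079W stands above the cloud at 3.71.

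Direction went with level, in members as in ORF-Ts. Of the 12 members with a mean below 10 RPKM, 5 rose and 0 fell, and of the 65 between 10 and 30 RPKM, 19 rose and 1 fell; the shares of ORF-Ts that rose in those ranges were 53% and 25.5%. Among the 23 members at 300 RPKM or more, 2 rose and 7 fell, the falling ones being 30.4% of the members and 43.1% of the ORF-Ts at that level. Of the 38 members that rose, 24 had a mean below 30 RPKM. With wild-type replicate 2 left out, 4 of the members below 30 RPKM rose.

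**Figure D3:**
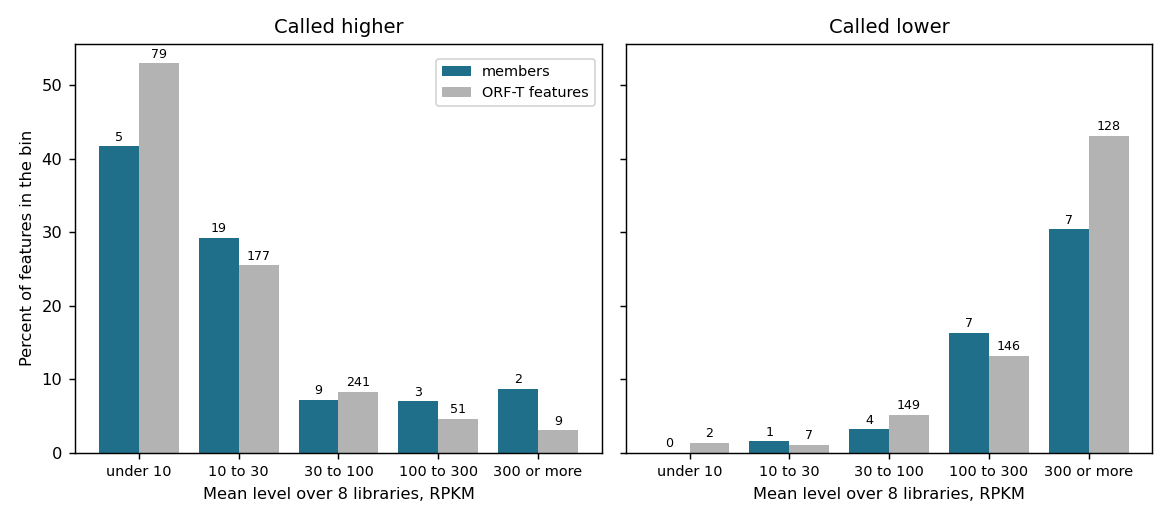
Percent of features past the threshold that were higher (left) or lower (right) in the mean of the 3 mutants, by mean RPKM over the 8 libraries, for members (blue) and ORF-Ts (grey); the number over each bar is the count of features. In both sets the share that rose is largest below 10 RPKM and the share that fell is largest at 300 RPKM or more.

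BNA2, YJR079W gave the largest change of any member. The feature, on the plus strand of chromosome X from 578856 to 580280 in the files' coordinates, whose build no source used here gives, joins BNA2, the tryptophan 2,3-dioxygenase that opens the pathway from tryptophan to NAD, with YJR079W. It had 32.93 and 30.15 RPKM in cac1, 30.75 and 23.71 in cac2, 20.37 and 17.68 in cac3, and 2.667 and 1.7 in wild type. Every mutant library was several times above both wild-type libraries, and cac3 stood lower than cac1 and cac2. The rise was 3.71 on the log2 scale (SE 0.22, adjusted p = 6.67e-06, edgeR), or 13.1-fold. Counts from bulk culture do not show whether more cells transcribed it or each cell transcribed it more. It was the fourth largest log2 change of all 7271 features, behind 3 SUTs and ahead of every ORF-T, of which the highest was IME4 at 3.38. Leaving out a library moved it between 3.22 and 3.87. The lower level in cac3 than in cac1, a difference of 0.71 (SE 0.15), missed the threshold with an adjusted p of 0.0517.

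The next members by size of rise mostly carried reading frames without a reference entry. YKL031W had 24.59 and 19.59 RPKM in cac1, 23.36 and 22.86 in cac2, 21.68 and 16.54 in cac3, and 5.597 and 6.012 in wild type. The groups were well apart, and it rose by 1.83 (SE 0.21, adjusted p = 0.000317). YBL006W-A had 48.75 and 42.24 RPKM in cac1, 47.07 and 42.34 in cac2, 37.27 and 40.01 in cac3, and 6.873 and 15.82 in wild type, where the replicates differed by a larger ratio than any 2 mutant libraries did. Its log2 rise was 1.64 (SE 0.21, adjusted p = 0.000576), and 2.61 without wild-type replicate 2. YOR161W-A, YOR161W-B had 16.82 to 25.88 RPKM over the mutant libraries and 5.8 and 8.515 in wild type, a rise of 1.53. YLR311C (1.33), YHL030W-A (1.03) and YLR120W-A (1.01) also rose, with their mutant libraries all above wild type. The rule for naming the members that rose most required this separation, so it is no added evidence for them. YHR032C-A, one of the lowest members, had 3.934 to 9.671 RPKM in the mutants and 2.176 and 2.068 in wild type, and rose by 1.41 (SE 0.27, adjusted p = 0.00544), a call lost without wild-type replicate 2 (adjusted p = 0.195).

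YLR120W-A was the most abundant of these. It had 184.2 and 177.1 RPKM in cac1, 143 and 191.3 in cac2, 113.2 and 125.3 in cac3, and 81.11 and 72.02 in wild type. The cac3 libraries stood between the other mutants and wild type, and YLR120W-A was higher in cac1 than in cac3 by 0.60 (SE 0.12, adjusted p = 0.0405). YDR008C names 2 members; the one at 462533 to 463149 on the minus strand of chromosome IV rose by 1.10, with 8.408 to 15.95 RPKM in the mutants and 7.92 and 4.581 in wild type, so that the lowest mutant library barely cleared wild type. Without wild-type replicate 2 its change was 0.54 and did not pass (adjusted p = 0.547).

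Over the 57 members that carry only unlisted reading-frame names, 16 rose and 1 fell, with a median change of 0.19; over all features 11.9% rose. This class also had the low level described above, and 25.5% of ORF-Ts at 10 to 30 RPKM rose as well; the part of level in this count was not tested. Without wild-type replicate 2, 5 of the 57 rose. The joint members, 159 in number, had 20 that rose and 13 that fell, with a median of 0.02, and 3 and 1 without that library.

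Joint members of known genes gave several rises of their own. YIL100W, SGA1, which includes the glucoamylase made in sporulation, had 9.885 and 6.785 RPKM in cac1, 5.932 and 5.77 in cac2, 4.164 and 3.984 in cac3, and 2.304 and 2.03 in wild type. The order of the strains was the same in all libraries, cac1 highest and wild type lowest, and the rise was 1.45 (SE 0.23, adjusted p = 0.00213). Its mean over the 8 libraries, 5.107 RPKM, reached the 5 RPKM asked of rising members only through cac1 and cac2. The neighbouring member named YIL100W alone rose by 0.52. MOH1, YBL048W, with a gene known from stationary phase, rose by 1.17, though its cac3 libraries at 5.04 and 5.233 RPKM were close to the wild-type libraries at 4.623 and 3.438. Its mean over the 8 libraries, 7.901 RPKM, likewise cleared 5 RPKM through cac1 and cac2, which averaged 10.68 and 11.76 RPKM. YNL205C, SPS18, YNL203C, with a sporulation gene, rose by 0.63, and YBR147W, YSW1, with another, by 0.68. The change of YBR147W, YSW1 was 0.295 without wild-type replicate 2 and did not pass (adjusted p = 0.623).

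POR1, tD(GUC)N joins the mitochondrial porin, the main channel of the outer membrane, with an aspartate tRNA. It had 337.9 and 306.4 RPKM in cac1, 295.3 and 311 in cac2, 305.7 and 305 in cac3, and 177.5 and 190.1 in wild type. The 3 mutants were nearly level and far above wild type. The log2 rise was 0.75 (SE 0.06, adjusted p = 5.01e-05), the largest of any member above 200 RPKM that passed. Smaller rises at high level were found for YLR111W, YLR112W at 0.49 and for YLR285C-A, CTS1, with the chitinase that separates daughter cells, at 0.24. RCR2, YDR003W-A rose by 0.35, FYV12, SER1, with a serine biosynthesis enzyme, by 0.27, and ITC1, YGL132W, with a subunit of the Isw2 chromatin remodeller, by 0.32.

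Falls were small: 0 of the 19 reached 1 on the log2 scale, while 11 of the 38 rises did. These sizes were not counted over all features. ORF-Ts leaned the same way by level, with a median log2 change of 0.899 below 10 RPKM and -0.147 at 300 RPKM or more. HMRA1, the a1 gene at the silent mating cassette HMR, had 77.85 and 128.5 RPKM in cac1, 126 and 129.1 in cac2, 143.2 and 142.6 in cac3, and 157.7 and 184.4 in wild type. All mutant libraries were below wild type, as the rule for naming falling members required, the first cac1 library most. HMRA1 fell by 0.47 on the log2 scale (SE 0.12, adjusted p = 0.0206, edgeR). In the fits that left out 1 library its log2 change lay between -0.64 and -0.33, with an adjusted p of up to 0.416. Its sequence has a near-identical copy at the mating-type locus of a cells, so the reads may not all be its own.

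MUC1, YIR020C lies on the minus strand of chromosome IX from 393637 to 397101, beyond the 5′ end of the ORF-T of MUC1, the flocculin also called FLO11. It had 19.74 and 19.5 RPKM in cac1, 17.9 and 16.89 in cac2, 21.53 and 18.67 in cac3, and 26.48 and 25.79 in wild type. The mutant libraries were all lower, which the naming rule required. The fall was 0.46 (log2 change -0.46, SE 0.07, adjusted p = 0.00164, edgeR). The ORF-T of MUC1 itself had 1.711 to 4.466 RPKM in the mutants and 2.125 and 2.257 in wild type, with a log2 change of 0.11 (SE 0.24) that did not pass.

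Several falling joint members stood at high levels. YBR190W, RPL21A, YBR191W-A, with a large-subunit protein gene, had 581.8 and 605.5 RPKM in cac1, 700.1 and 677.9 in cac2, 753.8 and 744.8 in cac3, and 867.2 and 824.7 in wild type. The strains did not overlap, with cac1 lowest. Its log2 change was -0.33 (SE 0.04, adjusted p = 0.000576) in the mean of the mutants, and it was lower in cac1 than in cac3. YLR366W, RPS22B fell by 0.39 and RPS8A, YBL071C-B, both with small-subunit ribosomal protein genes, by 0.23 on the log2 scale. HYP2, YEL033W, with translation factor eIF5A, fell by 0.21.

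Other falls were as small. YHR050W-A, COX6, with a cytochrome c oxidase subunit, fell by 0.23, YGR182C, QCR9, with a subunit of the cytochrome bc1 complex, by 0.18, and YML009C-A, MRPL39, with a mitochondrial ribosomal protein, by 0.22. None of these passed under DESeq2 (adjusted p = 0.178, 0.312 and 0.269, in that order). YBR076C-A, SLM4 had 149.8 to 162.7 RPKM in the mutants and 181.5 and 202.9 in wild type, and fell by 0.33. The change of YHR050W-A, COX6 was -0.135 without wild-type replicate 2 and did not pass (adjusted p = 0.513). SES1, FYV1, with the seryl-tRNA synthetase, and YOR121C, PFY1, with profilin, each fell by 0.19.

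**Figure D4:**
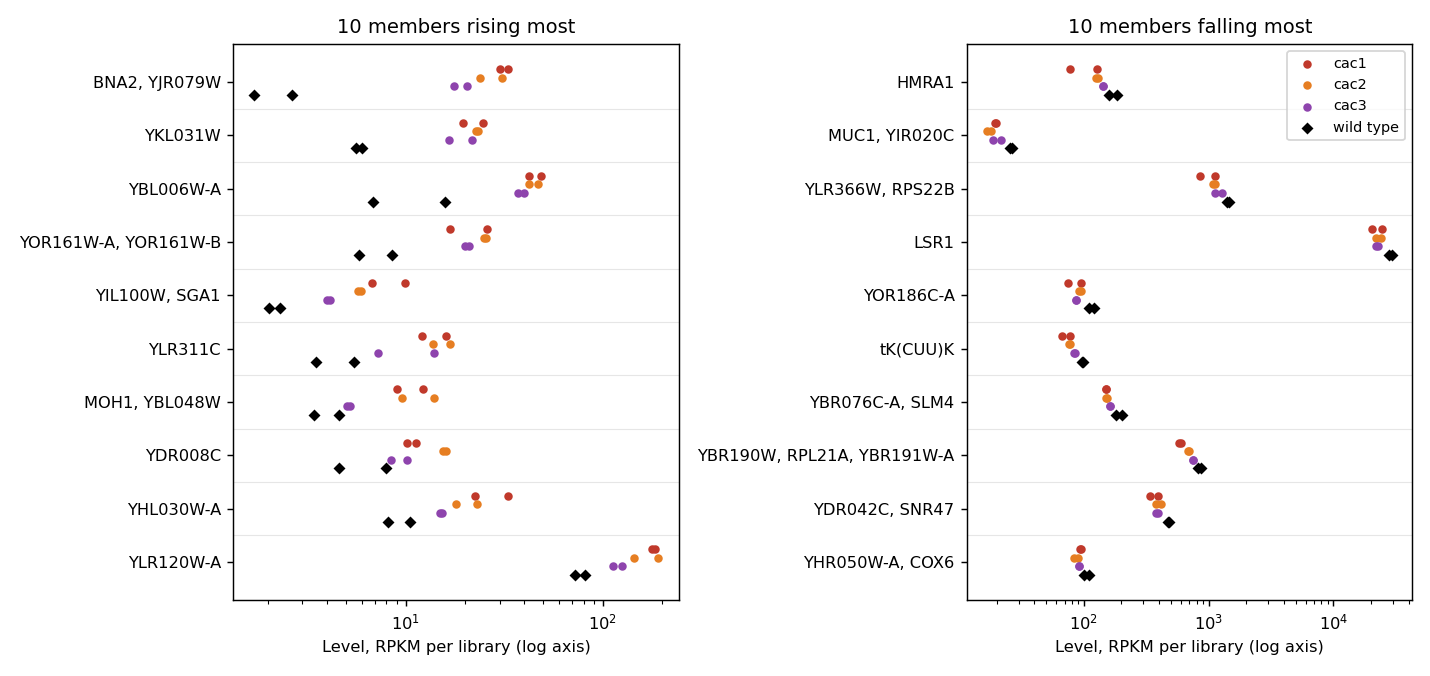
RPKM in every library on a log axis for the 10 members that rose most (left) and the 10 that fell most (right) in the mean of the 3 mutants, among members past the threshold that averaged at least 5 RPKM and had all 6 mutant libraries on 1 side of wild type; circles are the 2 libraries of each mutant and black diamonds the 2 wild-type libraries. The gaps on the left reach 13.1-fold in BNA2, YJR079W, while on the right mutant and wild-type libraries lie close together.

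Of the 5 noncoding RNA genes, 2 fell and 0 rose, beside 8.86% and 11.9% of all features. Among ORF-Ts, 13.2% fell at 100 to 300 RPKM, the range of NME1 and TLC1, and 43.1% at 300 RPKM or more. LSR1 changed by -0.35 (SE 0.06, adjusted p = 0.00277) and TLC1 by -0.20 (SE 0.06, adjusted p = 0.0324). NME1 changed by -0.20 (SE 0.11, adjusted p = 0.209), SCR1 by -0.01 (SE 0.10) and RPR1 by 0.02 (SE 0.14), none of them past the threshold. LSR1 missed the threshold in the fit without wild-type replicate 1 (adjusted p = 0.0521), and TLC1 passed in 3 of the 8 fits that left out 1 library.

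Over the 14 members with a tRNA name, 2 rose and 1 fell, beside 11.9% and 8.86% of all features, and the median change was -0.10. Besides the POR1 feature, tK(UUU)O rose by 0.34: it had 79.97 and 89.19 RPKM in cac1, 104.1 and 97.26 in cac2, 90.24 and 91.08 in cac3, and 75.48 and 71.14 in wild type. The other lysine tRNA name went the other way. tK(CUU)K had 66.98 and 77.09 RPKM in cac1, 76.15 and 77.46 in cac2, 83.77 and 85.31 in cac3, and 97.13 and 98.46 in wild type, and fell by 0.33 on the log2 scale (SE 0.06, adjusted p = 0.00311). The features are 1417 bp and 1185 bp long, and the files do not show where in them the reads lie. tV(AAC)G3 had the most negative change of any member, -1.03 (SE 0.34, adjusted p = 0.0529), and did not pass. Leaving out wild-type replicate 2 brought its change to -0.06, while in the fit that lacked wild-type replicate 1 it passed at -1.59.

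Of the 26 members with the name of a long terminal repeat, 3 rose and 1 fell, beside 11.9% and 8.86% of all features, and the median change was 0.02. YDRCdelta9 had 50.55 and 40.3 RPKM in cac1, 41 and 47.15 in cac2, 32.42 and 34.62 in cac3, and 26.12 and 23.4 in wild type; all mutant libraries were above wild type, cac3 least, and it rose by 0.74 (SE 0.12, adjusted p = 0.00216). YPR196W, YPRWtau4 and YER188W, YERWomega2 each rose by 0.46. YLRCdelta27 fell by 0.21 on the log2 scale. Under DESeq2, YDRCdelta9 and YPR196W, YPRWtau4 passed, while YER188W, YERWomega2 (adjusted p = 0.173) and YLRCdelta27 (adjusted p = 0.265) did not. In the comparison of cac1 with wild type, YELCdelta3 (log2 change -0.47) and YGRWdelta31 (-0.49) fell as well. Without wild-type replicate 2 none of the repeat names passed in the mean of the mutants.

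Pseudogene names stood on 5 members, of which YIR043C rose by 0.97. It had 7.164 to 9.278 RPKM in the mutants and 2.642 and 4.803 in wild type, apart in all libraries. Its change was 1.65 without wild-type replicate 2, with an adjusted p of 0.0721. The other 4, among them YOL153C and the joint YLL017W, SDC25, had log2 changes of 0.03 to 0.45 that did not pass. Of the 2 members with subtelomeric family names, MUC1, YIR020C fell as described and YOR008W-B, TIR4, with a cell wall mannoprotein of anaerobic growth, changed by -0.07 without passing. That list went by gene name and not by position on the chromosome, so it does not place these features near a telomere.

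Many members lie across from an ORF-T, and the strands could be set side by side. Whether the counting kept strands apart is not stated, but the 2 features of a pair have separate counts. The members YIL100W (2185 bp) and XBP1, YIL100C-A (2225 bp) share 2181 bp on opposite strands. They had 42 and 69 reads in wild-type replicate 1 and 161 and 71 in wild-type replicate 2, so the reads of this pair were not pooled across strands. Of the 35 members covered by at least 50%, 10 rose and 1 fell, beside 11.9% and 8.86% of all features, with a median change of 0.17; 4 rose and 0 fell without wild-type replicate 2. All members called here carry only unlisted reading-frame names, and are among the 16 that rose and 1 that fell in that class. The part of level in this count was not tested either. The opposite ORF-Ts passed in 14 of the 35 pairs, where 10.8% of all ORF-Ts rose and 8.35% fell. Both partners passed in 5 pairs, 2 of them in the same direction. Across the 35 pairs, which share libraries and position, the correlation of the log2 changes was -0.236, a weak relation.

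YKL031W lies opposite IXR1, a DNA-binding protein with roles in the hypoxic response, with 61.1% of its length covered; it rose by 1.83 while IXR1 rose by 0.28. YBL006W-A lies opposite LDB7, a subunit of the RSC chromatin remodeller, over 83.4%; it rose by 1.64 where LDB7 changed by -0.29. YOR161W-A, YOR161W-B lies wholly across PNS1, and YHL030W-A wholly across GOS1, a Golgi SNARE; PNS1 changed by -0.12 and GOS1 by 0.02, neither passing. The difference between the strands was not tested.

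YLR120W-A lies across 90% from YPS3, an aspartic protease of the cell surface, and both rose, YPS3 by 0.62. YHR182C-A rose by 0.76 and lies wholly across GND1, the 6-phosphogluconate dehydrogenase of the pentose phosphate pathway, which changed by -0.52 (adjusted p = 7.64e-05). The rise of YHR182C-A did not pass under DESeq2 (adjusted p = 0.204). The single falling member of this set was YOR186C-A, at -0.34 (adjusted p = 0.0468, edgeR), whose partner YOR186W rose by 0.68. YOR186C-A did not pass under DESeq2 (adjusted p = 0.205). YMRWdelta16 did not pass, at 0.15, across from YMR118C, the ORF-T with the largest change of the 35, which rose by 2.09 (SE 0.44).

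**Figure D5:**
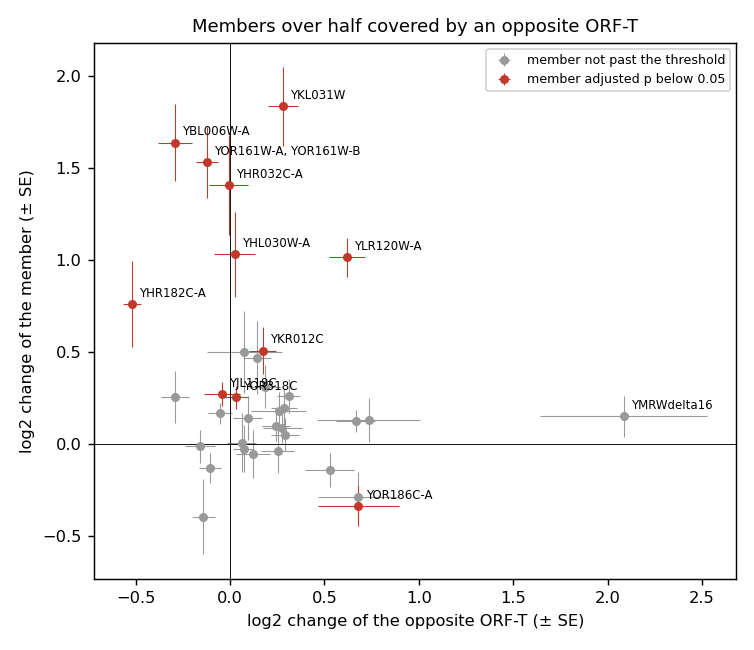
Log2 change of each of the 35 members that have at least 50% of their length covered by an opposite ORF-T (vertical axis) against that of the ORF-T (horizontal axis), mean of the 3 mutants minus wild type; bars are standard errors and red points are members past the threshold. The members with the largest rises, such as YKL031W and YBL006W-A, lie near 0 on the horizontal axis.

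For 9 members, a name also stands on an ORF-T of its own. YSW1 differed most: the joint member YBR147W, YSW1 rose by 0.68 and the ORF-T of YSW1 by 2.54 (SE 0.24). The difference between them was not tested. For RPS22B both fell, the member by 0.39 and the ORF-T by 0.22 on the log2 scale. QCR9 fell by 0.18 as a joint member, and its ORF-T had a change of -0.41 that did not pass (SE 0.15).

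In the single mutants, which all share the same 2 wild-type libraries, 33 members rose and 21 fell in cac1, where 10.8% of all features rose and 8.38% fell. In cac2 34 members rose and 15 fell, beside 9.57% and 5.94% of all features. In cac3 13 members rose and 4 fell, beside 3.7% and 2.38% of all features. In each of the 3 mutants the same 10 members rose and the same 3 fell. The 3 were LSR1, the SLM4 feature and MUC1, YIR020C. This overlap was not counted over all features, and the shared wild-type libraries favour it in any set. BNA2, YJR079W rose by 4.02 in cac1, 3.80 in cac2 and 3.31 in cac3. POR1, tD(GUC)N rose by 0.80 in cac1, 0.72 in cac2 and 0.73 in cac3. Without wild-type replicate 2, cac1 had 7 rises and 2 falls, cac2 had 8 and 2, and cac3 had 3 and 0.

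Between mutants, 1 member was higher and 2 were lower in cac1 than in cac3, against 0.674% and 0.688% of all features. In cac2 against cac3, 0 were higher and 1 was lower (0.344% and 0.261% of all features). PRM7, YDL038C, BSC1, which joins a pheromone-regulated gene under 2 names (PRM7 and YDL038C) with the neighbouring BSC1, was lower in both comparisons. It had 46.79 and 47.31 RPKM in cac1, 56.72 and 63.77 in cac2, 79.51 and 81.07 in cac3, and 60.29 and 65.19 in wild type. The cac1 libraries were lowest and the cac3 libraries highest, with wild type between. It fell by 0.42 on the log2 scale in cac1 (SE 0.08, adjusted p = 0.00591), rose by 0.35 in cac3 (SE 0.08, adjusted p = 0.0255), and was lower in cac1 than in cac3 by a log2 difference of -0.77 (SE 0.08, adjusted p = 0.000728). It was the 1 member to pass in opposite directions in different mutants. Against cac3, cac2 was lower by a log2 difference of -0.41 (adjusted p = 0.0494), a call lost in 6 of the 8 fits that left out 1 library. Between cac1 and cac2, where 0.055% of all features passed, edgeR called 0 members, with 23 at an unadjusted p under 0.05, and DESeq2 called 0. More members passed in each pair of mutants with the replicate number as a block, as given in the last section. The labels do not say that these numbers pair samples.

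The files also count reads in a window of up to 600 bp beside the 5′ end of each feature, on a strand that no source used here names. Among 262 members with enough window reads, 34 windows rose and 13 fell in the mean of the mutants, against 16.9% and 5.19% of all windows. The median change was 0.10 over the members' windows and 0.13 over those of ORF-Ts. With wild-type replicate 2 left out, 2 of the members' windows passed. For 10 members both the feature and its window rose, and for 4 the feature rose and the window fell. For 1 member both fell, and for 3 the feature fell and the window rose. These joint counts were not made over all features, so they show nothing particular to the members. The window of BNA2, YJR079W rose by 2.31 (SE 0.46, adjusted p = 0.00417), from counts of 6 and 20 in cac1, 6 and 12 in cac2, 23 and 21 in cac3, and 1 and 5 in wild type. The window of YBL006W-A changed by -0.30 and that of YHR182C-A by -0.48, while the features themselves rose. The ORF-Ts opposite these members, LDB7 and GND1, fell as well, LDB7 by a log2 change of -0.29. Whether the windows hold reads of those ORF-Ts was not tested.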

How the data were processed

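The 8 NET-seq libraries followed a protocol the labels cite. The sources used here give no aligner, read filter, genome build or rule for reads with several matches. The authors deposited whole-number counts of reads over the span of each feature, per the file headers, with no normalization. For a window at each 5′ end the authors deposited an estimated count, where 0.5 stands for an empty window and was read here as 0. The ratio of both counts, an RPKM and, for mutants, natural log values of ratios were also deposited by the authors and were not used in the tests; the RPKM of the windows gave the window widths.

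Members were taken by class and name from the deposited tables, and their names were matched to the RefSeq gene table of assembly R64 for symbols alone. Of 433 names 254 received a symbol, among them the 5 noncoding RNA genes, which were set from a fixed list. The repeats, tRNA names, 2 small nucleolar RNA names and unlisted reading frames received none. RPKM was recomputed from the counts and the library's total over all features, multiplied by the library's scaling factor given below. Features that reached 1 RPKM in 2 or more libraries entered 1 edgeR 4.0.16 quasi-likelihood fit in R 4.3.3 (7271 features, all 8 libraries, a coefficient per group, no block). TMM (trimmed mean of M-values) factors computed over ORF-Ts (0.964 to 1.02) scaled the libraries, and p-values were adjusted over all features by Benjamini-Hochberg at 0.05. The 7030 windows with at least 10 reads in at least 2 libraries were fitted apart with the same factors. The biological coefficient of variation was 8.13%, with 4 residual degrees of freedom. Standard errors are the absolute log2 change over the root of the F statistic. The fit was tested on simulated counts with known changes.

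The 3 mutants were compared with wild type by their mean and one by one, and with each other in pairs. Named members were the 10 rising and 10 falling most in the mean (5 each way in a single mutant, 3 between mutants) past the threshold, with a mean RPKM of at least 5 and the mutant libraries all on 1 side, the highest and lowest in wild type, those on lists of noncoding RNA, tRNA, repeat, subtelomeric and pseudogene names, and pairs with an opposite ORF-T; further called members were named after their values were seen. One member that this rule names is not reported here. Members and lists were chosen with earlier results of these data known. Alternatives were DESeq2 1.42.0 and its size factors, no scaling, other filters, a replicate block and each library left out. Tables and figures were made in Python 3.11.15 with numpy 2.4.6, pandas 2.3.3 and matplotlib 3.10.9. No sequence is printed.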

Additional observations from a re-analysis of the deposited data

How the results depend on the processing

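The filters on low values and DESeq2's size factors within edgeR left the members' counts within 1.5 times those reported, except that with those size factors 0 members passed between cac2 and cac3. Under DESeq2, 19 rose and 11 fell in the mean of the mutants, 21 and 9 in cac1, 14 and 7 in cac2, and 2 fell in cac3; 5 passed between cac1 and cac3, 2 between cac2 and cac3, and 18 windows passed. With no scaling beyond library totals, 10 fell in the mean, 51 rose and 10 fell in cac1, 7 fell in cac2 and 2 in cac3, and 0 passed between cac2 and cac3; that choice moved the median of all features to 0.06 (log2). The causes were not tested.

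Leaving out 1 library gave 7 to 43 rises and 2 to 24 falls in the mean of the mutants, while cac1 had 7 to 35 and 2 to 20, cac2 had 8 to 36 and 2 to 19, and cac3 had 3 to 17 and 0 to 4. Between mutants it gave 1 to 6 calls for cac1 against cac3 and 0 to 1 for cac2 against cac3, and 2 to 51 windows passed. Wild-type replicate 2, the deepest library, gave the lowest of each range of rises and falls. The shallower wild-type library then stands alone and is assumed to vary like the other groups.

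Members that were not called changed sign under some settings. With no scaling PRM7, YDL038C, BSC1 stood at 0.013, SCR1 at 0.041, YCR006C, SUF2 at 0.051 and tE(UUC)K at 0.027; under DESeq2 YIL168W, SDL1 stood at -0.008. With 1 library left out PRM7, YDL038C, BSC1 ranged from -0.093 to 0.015, SCR1 from -0.091 to 0.064, tL(GAG)G from -0.634 to 0.074, RPR1 from -0.097 to 0.160, NME1 from -0.306 to 0.019, YCR006C, SUF2 from -0.262 to 0.246, tE(UUC)K from -0.114 to 0.038, YCRCdelta6 from -0.059 to 0.111, YIL168W, SDL1 from -0.244 to 0.160 and YLL017W, SDC25 from -0.146 to 0.134.

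Replicate numbers are shared by the groups, with nothing in the labels to say that they pair samples. Deviations of replicate 1 from the group means correlated by 0.359 to 0.573 across ORF-Ts for the 6 pairs of groups. With the number as a block, 54 members rose and 36 fell in the mean; cac1 had 55 rises and 34 falls, cac2 had 56 and 30, and cac3 had 23 and 19. The block gave 29 calls between cac1 and cac3, 10 between cac2 and cac3, 5 between cac1 and cac2, and 80 windows.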
